A study of Mus musculus with 6 samples.

Results

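The miR-379 to miR-410 cluster is a row of microRNA (miRNA) genes in the imprinted Dlk1-Dio3 domain on mouse chromosome 12. Its members were taken by name from the table of mature miRNAs, as every mouse entry of 38 miRNA names from miR-379 to miR-410 and miR-3072. Each distinct sequence was counted once, which gave 75 member sequences of 1963 mouse sequences in all. Of the names, 37 have a 5p and a 3p arm and miR-453 has a single entry with no arm named.

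The study gave mice an injection of AAV9, an adeno-associated virus used as a gene carrier, and sequenced the small RNAs of their livers, to learn how a vector with a miR-122 element affects liver miRNAs. Vectors of both groups carried Cre recombinase behind the promoter of Tnnt2, the cardiac troponin T gene, whose promoter is used to drive expression in heart muscle cells. The Cre group (replicates 10, 11 and 12) received AAV-Tnnt2-Cre, and the Cre-miR122 group (replicates 1, 2 and 4) received AAV-Tnnt2-Cre-miR122. The labels do not say whether the element encodes miR-122 or binds it, and they give no age, strain, dose or time. Of these, Cre-miR122 replicate 2 alone was analysed. The other 5 libraries were not analysed here, so every value below describes 1 library, with no replicate, no control and no test between groups.

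Imprinted genes are expressed from the chromosome of 1 parent, and the RNAs that hold this cluster are made from the maternal copy. The primary RNA folds into hairpins, each of which is cut into a 5p arm and a 3p arm, and the arm that is loaded into Argonaute finds target mRNAs mainly through its seed, bases 2 to 8 from the 5′ end. A shift of the 5′ end by 1 base therefore changes the seed, whereas a change at the 3′ end does not. The cluster is best known in brain, placenta and embryo, and newborn mice that lack it on the maternal chromosome adapt poorly to the metabolic demands after birth, in the liver among other organs.

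The library held 6661069 reads over the mouse sequences. The list taken for hepatocytes (5 of 5 with reads) held 62.6% of them, of which miR-148a-3p held 57.9% and the other 4 together 4.69%. The sum thus rests on miR-148a-3p and is no measure of the share of hepatocyte RNA. Among the other 4, miR-122-5p, the defining miRNA of hepatocytes and the namesake of the element in the vector of this group, had 236027 reads. Striated muscle markers (6 of 7 with reads, miR-208a-3p at 0) held 15.8%, of which miR-1a-3p held 14.7% and the other 6 together 1.05%. miR-1a-3p had 980271 reads, more than miR-122-5p had. With forms that have other ends added, as defined below, miR-1a-3p had 1065891 reads and miR-122-5p 685639. Of the other muscle markers, miR-206-3p had 68854 reads by its mouse entry. The rest were low, with miR-133a-3p at 915, miR-499-5p at 251, miR-133b-3p at 20 and miR-208b-3p at 6. In the next lists, too, 1 marker held most of the sum. Stellate and fibroblast markers (5 of 5) held 2.15%, of which miR-143-3p held 2.04%. Endothelial markers (2 of 2) held 0.908%, of which miR-126a-3p held 0.891%. Red cell markers (3 of 3) held 0.0429%, of which miR-486a-5p held 0.0383%. With forms of other ends added, miR-486a-5p had 3066 reads and miR-451a 2635, the latter in place of 305. Of 5 neuron markers, 3 had reads, which summed to 0.0160%, of which miR-128-3p held 0.0151%. The defining miRNA of neurons, miR-124-3p, had 1 read. What RNA of muscle or of other cells contributed to the cluster's reads was not tested.

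Sequences are shown first of the 6 most read members, among which miR-381-3p and miR-300-3p are nearly the same, and of miR-382-3p and miR-494-3p, whose forms with other ends are set against them below. They come from RefSeq, build GRCm38.p6, plus strand, written 5′ to 3′ with the seed in capitals.
miR-381-3p: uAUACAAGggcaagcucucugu
miR-300-3p: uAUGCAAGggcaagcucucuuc
miR-379-5p: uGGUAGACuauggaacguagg
miR-411-5p: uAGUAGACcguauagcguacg
miR-541-5p: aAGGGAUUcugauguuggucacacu
miR-382-5p: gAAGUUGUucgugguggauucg
miR-382-3p: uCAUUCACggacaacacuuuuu
miR-494-3p: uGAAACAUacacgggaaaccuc
miR-381-3p lies at chr12:109726870-109726891 and miR-300-3p at chr12:109724363-109724384. Aligned from the 5′ end, they share 19 of 22 bases, and the 3 differences, counted from base 1 of miR-381-3p, are A4G, G21U and U22C. The first of these lies in the seed, so the pair has different seeds in spite of its shared middle.

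The cluster held 245859 reads, which is 3.69% of mouse reads (exact Clopper-Pearson 95% interval 3.68 to 3.71). All intervals here cover the counting error of reads only. Of the 75 members, 50 had at least 1 read (66.7%), set beside 27.8% of all mouse sequences and 26.3% of the 1888 outside the cluster. With the members that had none left out, the median was 58 reads, against 15.5 reads over the other mouse sequences with reads. By size, 13 members had 1 to 9 reads, 16 had 10 to 99, 15 had at least 100 but under 1000, and 6 had at least 1000. The other 25 members had no read. Taken at a floor of 3 reads, each would hold 4.5e-05% of mouse reads, and the exact upper limit of a count of 0 is 5.5e-05%. Both apply to the mouse entry alone and not to forms of the arm with other ends.

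The sum rested on very few members. miR-381-3p alone had 192422 reads, the fifth highest of all mouse sequences and 78.3% of the cluster (78.10 to 78.43). miR-379-5p, the first miRNA of the cluster, had 34129 reads, or 13.9% of the cluster. Together these 2 held 92.1% of the cluster's reads, and miR-381-3p had 5.64 reads for each read of miR-379-5p. Next came miR-411-5p with 5504 reads, miR-300-3p with 4557, miR-541-5p with 2581 and miR-382-5p with 1542. The remaining 69 members shared 5124 reads. Without miR-381-3p in the list and in the total, the cluster's share of mouse reads was 0.826%, so 1 miRNA set most of its level.

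Members of the middle range lay far below these. miR-409-5p had 738 reads, miR-329-3p 525, miR-299a-3p 469, miR-410-3p 406, miR-380-5p 335 and miR-323-3p 302. The last hairpin of the named cluster, miR-410, was thus present at a level far below that of the first, miR-379. miR-134-5p, which limits dendritic spine size in neurons, had 277 reads, and its 3p arm had 0. miR-485-5p, another miRNA studied at synapses, had 61 reads and miR-485-3p had 0.

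**Figure D1:**
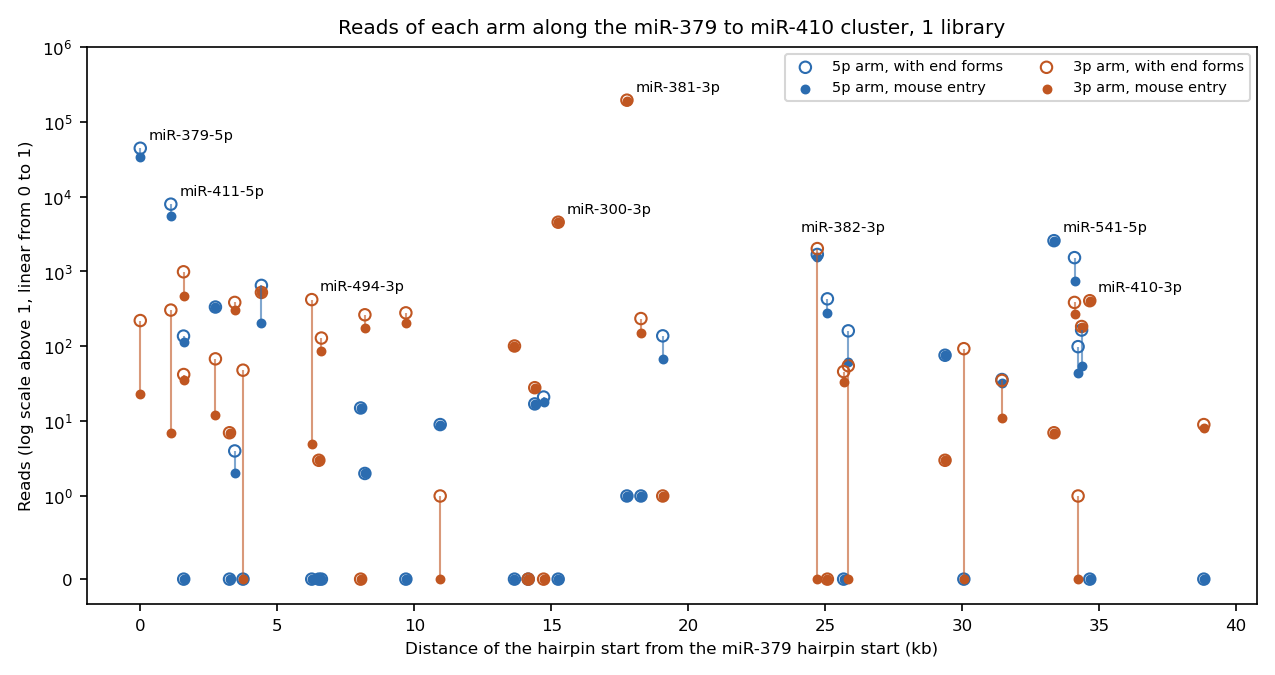
Reads of each arm (vertical axis, log scale above 1) against the distance of its hairpin from the start of the miR-379 hairpin (kb); filled points are the mouse entry, open points add the end forms, blue is the 5p arm and orange the 3p arm. miR-381-3p stands at 192422 reads between hairpins with far fewer, and the vertical line at miR-382-3p runs from 0 to 2023 reads.

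High and low counts stood side by side along the genome. The hairpins from Mir379 to Mir410 span chr12:109709060-109743795, or 34.7 kb, and miR-3072 lies 4.08 kb further on. All but 1 of the 38 hairpins lie on the plus strand, the exception being Mir299b, which is annotated on the minus strand over Mir299a. Mir381 (chr12:109726822-109726896) starts 2.43 kb after Mir300 ends and ends 0.437 kb before Mir487b starts. In spite of this closeness, the miR-381 hairpin had 42.2 reads for each read of miR-300 and 1258 for each read of miR-487b. With all recorded ends counted, these ratios were 42.7 and 825. Because adapters join some RNAs more readily than others, such a ratio counts reads and not molecules.

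From miR-382 on, 14 hairpins lie on the same strand within the gene of the maternally expressed long RNA Mirg (chr12:109729764-109749460, GENCODE M21), 9 in exons and 5 in introns. These 14 held 6325 reads, and the 24 upstream of Mirg held 239534, of which 47111 were not of miR-381. In all, 34 of 38 hairpins had reads, 18 had at least 100 and 7 at least 1000, with a median of 82.5 reads per hairpin. No share over all mouse hairpins was computed for these counts, so they describe the cluster only.

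Most hairpins gave reads from nearly 1 arm only, but which arm it was differed between neighbours. Among the 34 hairpins with reads and both arms named, the 3p arm was higher in 19 and the 5p arm in 15. The exact interval of the 3p share lay wholly above 50% in 16, wholly below in 15 and held 50% in 3. Over the 18 hairpins with at least 100 reads, the median share on the higher arm was 99.8%, and 14 had over 90% there. The 100 other mouse hairpin names with at least that many reads had a median of 99.7%, and 83 of them had over 90%, values near those of the cluster. miR-381 had 1 read of its 5p arm, and miR-300 and miR-410 had none. miR-379 and miR-541 stood at the other end, with 23 and 7 reads of their 3p arms. The read-weighted 3p share of the whole cluster was 81.4% (81.21 to 81.52), but without miR-381-3p it was 14.2%, with miR-379-5p then leading the sum.

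**Figure D2:**
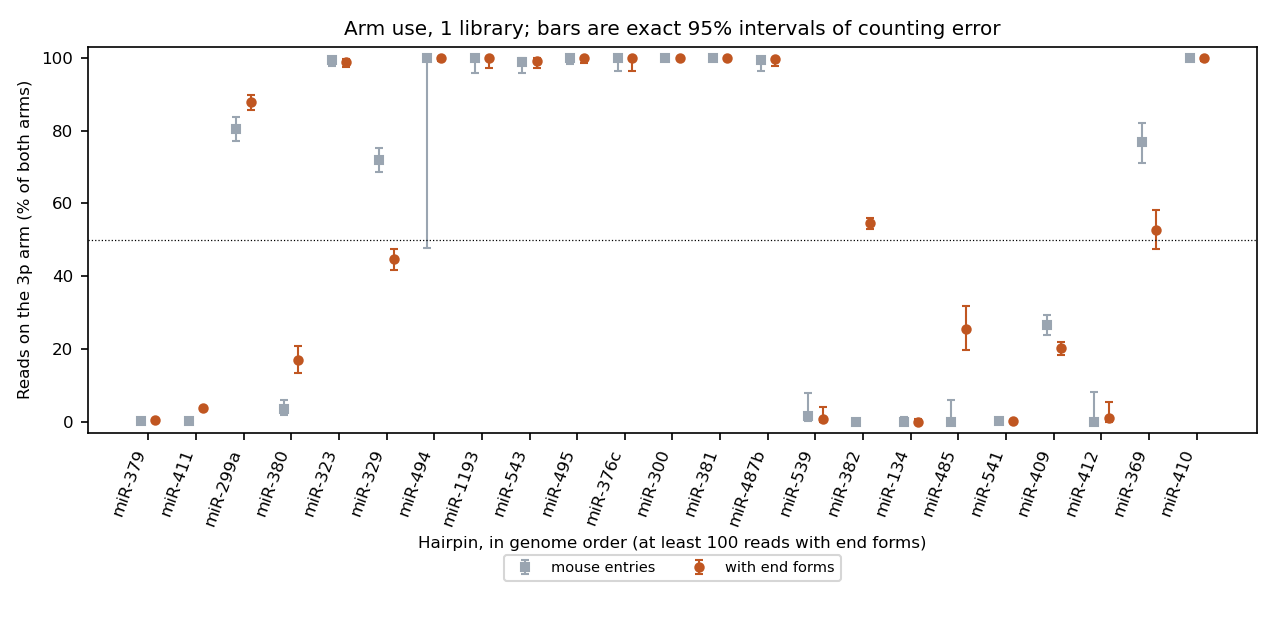
Share of reads on the 3p arm (vertical axis, percent of both arms) for each hairpin with at least 100 reads with end forms, in genome order; grey squares use mouse entries, orange circles add end forms, and bars are exact 95% intervals of counting error. Most hairpins sit near 0 or 100, and miR-382 moves from 0 to 54.5%.

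The table also lists the miRNAs of other species, and some of these sequences are the mouse arm with other ends. Such an entry is called an end form here if it has the same name and number, overlaps the mouse sequence by at least 15 bases and has no mismatch there. The members had 111 end-form sequences, of which 67 had reads. They held 21103 reads, 8595 of them outside miR-381-3p and miR-379-5p, and belonged to 37 members. A shorter form was often less read than the longer one that starts with it (48 of 78 such pairs), so a read was not counted for every entry that it contains. End forms are seen only where another species' list records them, and 25 members have none, among them miR-300-3p, miR-541-5p, miR-329-3p and miR-369-3p.

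With end forms added, the cluster had 266962 reads, or 3.31% of mouse reads with end forms, and 56 of 75 members had reads. The 19 members at 0 in every recorded form were 14 5p arms, 4 3p arms and miR-453, and 12 of them have no end-form entry. miR-381-3p had 194681 reads and miR-379-5p 44378. The largest gains in proportion were in members with few mouse-entry reads, where the ratio has a small base. Others gained little or nothing, such as miR-410-3p, at 406 and 407 reads, and miR-380-5p, at 335 by both counts. Of members with a mouse read, 13 at least doubled. In 16 of 56 members the most read form was an end form and not the mouse entry. No matching count was made outside the cluster for these numbers or for the 56 of 75. Forms that kept the 5′ start held 15126 reads, 13061 in forms shorter at the 3′ end and 2065 in longer ones. miR-379-5p alone gave 10249 of the 15126. Without it 4877 reads kept the start. The 5977 end-form reads with another start rested on few arms as well, with 504 outside miR-381-3p, miR-382-3p and miR-411-5p. Among arms with at least 100 reads with end forms, the mouse entry held a median of 69.2% in 29 members and 68.4% in 179 other mouse sequences. It held under 50% in 10 of those 29 members and in 75 of those 179 sequences. The cluster thus stood near the rest of the table in this respect. The mouse entry held 64.3% of the reads of miR-134-5p, and miR-485-5p had 161 reads with end forms in place of 61. miR-409-5p had 1532 in place of 738.

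**Figure D3:**
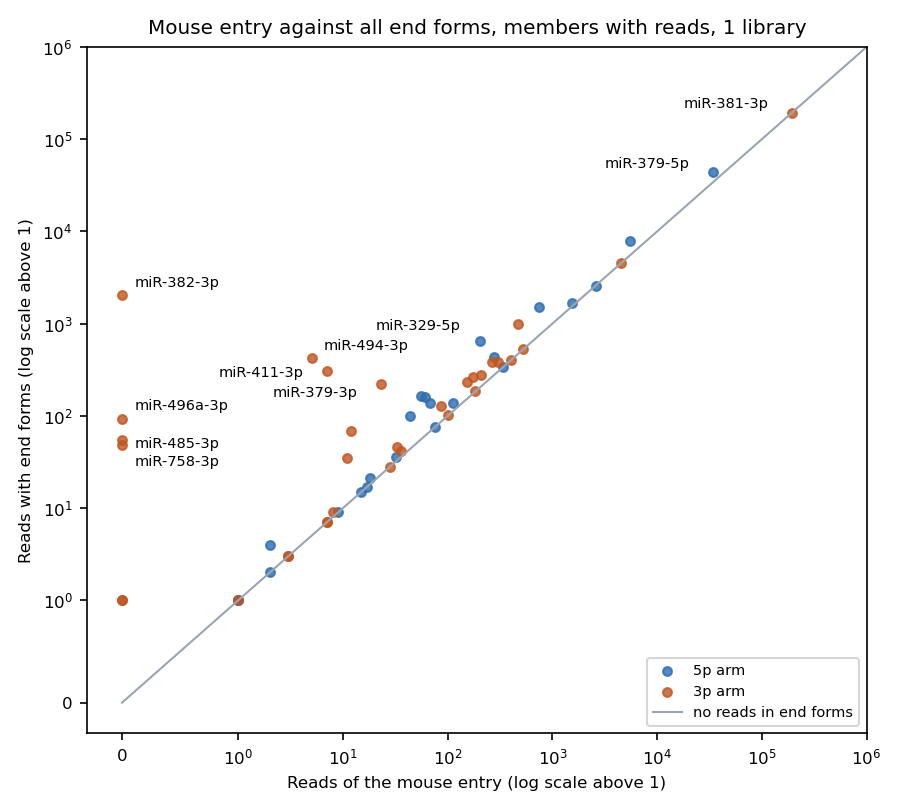
Reads of each member with end forms (vertical axis) against reads of its mouse entry alone (horizontal axis), both on a log scale above 1; the line marks members with no reads in end forms, blue is the 5p arm and orange the 3p arm. miR-382-3p, miR-496a-3p, miR-485-3p and miR-758-3p lie on the left edge with 0 mouse-entry reads and 2023, 93, 55 and 48 reads with end forms.

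In proportion to its mouse entry, which had 0 reads, miR-382-3p gained most, while miR-379-5p, miR-411-5p and miR-381-3p gained more reads. Its 3 end forms with reads all start 2 bases earlier than the entry at chr12:109733819-109733840, and they had 1669, 326 and 28 reads. They are shown in that order, with their own seed in capitals, to set against the mouse entry above.
miR-382-3p, first form: aAUCAUUCacggacaacacuuu
miR-382-3p, second form: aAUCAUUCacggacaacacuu
miR-382-3p, last form: aAUCAUUCacggacaacacuuuu
Their sum of 2023 reads was at least 674-fold higher than the mouse entry, taken at the floor of 3 reads. Their seed, AUCAUUC, is not the CAUUCAC of the mouse entry, and no mouse sequence in the table has it. No recorded end form of miR-382-3p keeps the mouse start, so reads with that start could be counted only in the mouse entry. The 5p arm had 1542 reads, or 1689 with end forms, so counting mouse entries alone put every read of this hairpin on the 5p arm. With end forms the 3p arm had 1.20 reads for each 5p read (1.12 to 1.28), and the higher arm changed.

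miR-494-3p and miR-411-3p were the next in proportion among arms with at least 100 reads with end forms, both at the 3′ end. The mouse entry of miR-494-3p had 5 reads, and a form longer by 1 base had 416, which took the arm to 421 reads, 84.2 times the entry. Its 5p arm had 0 reads. miR-411-3p had 7 reads by its entry and 305 with end forms, of which 288 lay in the form that lacks the last base, a gain of 43.6 times. miR-379-3p showed the same pattern, with 23 reads by its entry, 198 in the form that lacks the last base and 221 in all.
miR-494-3p, longer form: uGAAACAUacacgggaaaccucu
miR-411-3p: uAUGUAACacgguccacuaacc
miR-411-3p, shorter form: uAUGUAACacgguccacuaac
miR-379-3p: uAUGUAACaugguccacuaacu
miR-379-3p, shorter form: uAUGUAACaugguccacuaac
These forms keep the seed of the mouse entry and change the arm's level only. The 5p:3p ratio of miR-379 was 1484 by mouse entries and 201 with end forms (175.9 to 230.2). That of miR-411 was 26.0 with end forms (23.2 to 29.3). The 5p arm remained the higher in both.

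Counted with end forms, other hairpins changed their balance of arms too. By mouse entries, miR-329 had 204 reads on the 5p arm and 525 on the 3p arm. With end forms it had 652 and 525, so its higher arm changed too. Its 3p arm has no end-form entry, so only its 5p arm could gain reads. The remaining hairpins below were chosen after their values were seen. miR-369 had 3.35 reads of the 3p arm for each of the 5p arm by mouse entries. With end forms it had 1.12 (0.899 to 1.38), where the interval holds equal arms. Its 3p arm has no end-form entry either, so this ratio could not rise. miR-377 had 32 reads of the 5p arm and 11 of the 3p arm, and 36 and 35 with end forms. Over all hairpins with both arms named and reads, the 3p arm was the higher in 21 and the 5p arm in 15 with end forms, and miR-382 and miR-329 were the only 2 of the 34 hairpins with reads by mouse entry whose higher arm changed.

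A shifted 5′ start was not confined to miR-382-3p. Of the 5977 reads with another start, 504 lay outside miR-381-3p, miR-382-3p and miR-411-5p. Of the end-form sequences with another start, 17 had at least 10 reads. They belonged to 10 arms, and 15 of the 17 have a seed that no mouse sequence has. miR-411-5p had 1598 reads that start 1 base earlier, or 20.1% of the arm (19.25 to 21.03). miR-381-3p had 1852 such reads, which is 0.951% of its far larger total. In miR-323-3p, 79 of 386 reads started 1 base earlier.
miR-381-3p, earlier start: aUAUACAAgggcaagcucucugu
miR-411-5p, earlier start: aUAGUAGAccguauagcguacg
miR-323-3p, earlier start: gCACAUUAcacggucgaccucu
The earlier start of miR-381-3p gives it the seed UAUACAA, which is also the seed of let-7a-1-3p (27 reads), let-7f-1-3p (1 read), miR-98-3p (20 reads) and let-7b-3p (0 reads). Its 1763 reads in the form shown and 89 in a shorter one were more than the mouse-entry reads of those 4 sequences. End forms of the 4 are not included in that comparison. Of the 29 members with at least 100 reads with end forms, 4 (13.8%) had a share of over 10% at another start. Among 179 other mouse sequences at that minimum, 20 (11.2%) did, so a shifted start was about as common outside the cluster.

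**Figure D4:**
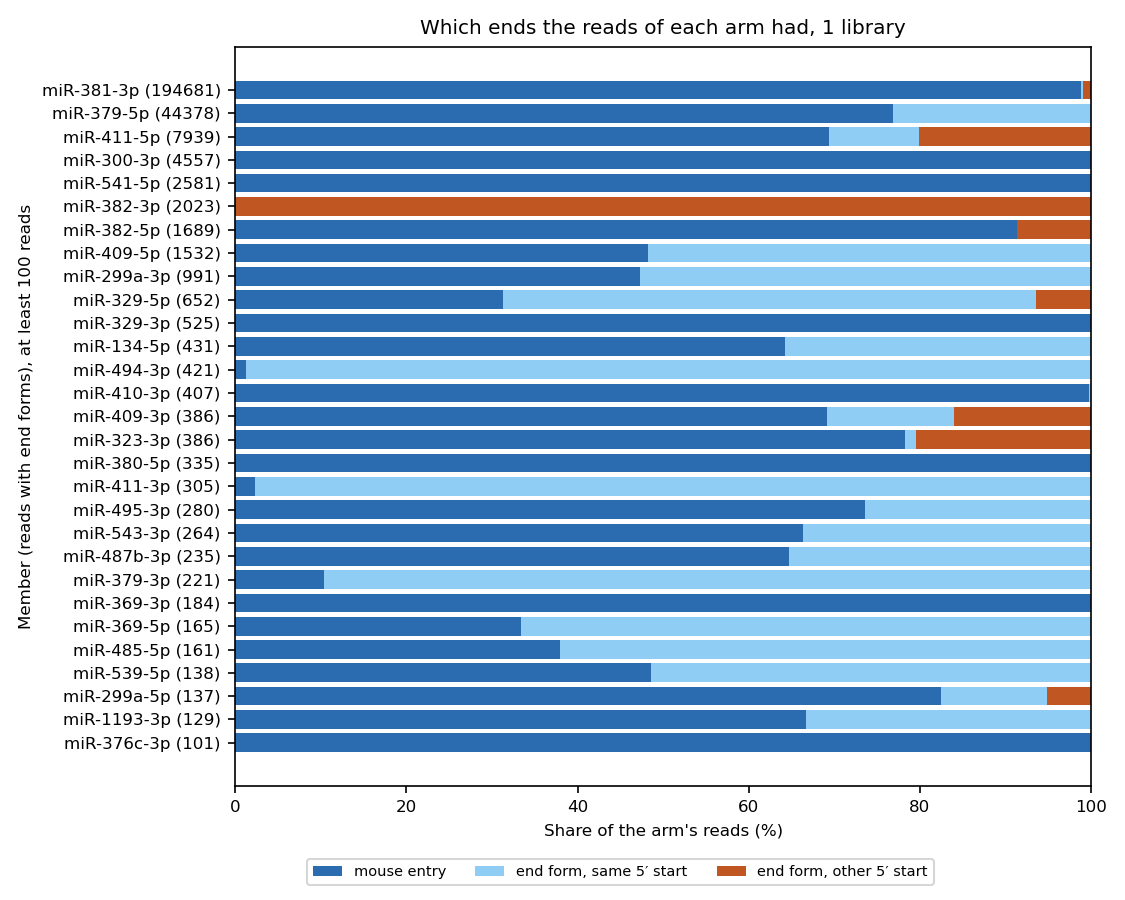
Share of each arm's reads (horizontal axis, percent) held by the mouse entry (dark blue), by end forms with the same 5′ start (light blue) and by end forms with another 5′ start (orange), for members with at least 100 reads with end forms, whose number is in parentheses. All 2023 reads of miR-382-3p have another start, and 20.1% of those of miR-411-5p do. No end form of miR-382-3p with the mouse start is recorded.

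The members share few seeds. The 75 sequences have 67 seeds, of which 8 are held by 2 members each, and in 3 of these 8 both members had reads. The seed AUACAAG of miR-381-3p is shared by miR-539-3p, which had 1 read beside 192422. AUGUAAC is shared by the 3p arms of neighbours miR-379 and miR-411, with 30 reads by mouse entries and 526 with end forms. These 2 arms differ, from miR-411-3p to miR-379-3p, by C10U and C22U only. The 5p arms of the same hairpins, which are far more abundant, have different seeds because of A2G from miR-411-5p to miR-379-5p. miR-1193-5p has the seed of miR-379-5p and had 0 reads beside 34129. AUGUGGG is shared by miR-299a-3p, with 469 reads, and miR-299b-3p, with 36. The 18 bases of miR-299b-3p are the start of miR-299a-3p, so its reads cannot be told apart from shortened miR-299a-3p. With end forms, miR-299a-3p had 991 reads and the 5p arm 137.
miR-299a-3p: uAUGUGGGacgguaaaccgcuu
miR-299b-3p: uAUGUGGGacgguaaacc
Outside the cluster, 11 of the members' seeds also occur in other mouse sequences. Of the more abundant members, miR-329-3p (525 reads) shares its seed with miR-362-3p (27 reads), and miR-410-3p (406 reads) with miR-344d-3p and miR-344e-3p, which had 0.

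The miR-376 members, whose primary transcripts are known substrates of A-to-I RNA editing in brain, were low. miR-376c-3p had 101 reads and its 5p arm had 0. miR-376b-3p had 28 reads and miR-376b-5p had 17, a 3p:5p ratio of 1.65 (0.871 to 3.21) that cannot be told from equal arms. miR-376a-5p had 18 reads, or 21 with end forms, and miR-376a-3p had 0.
miR-376a-3p: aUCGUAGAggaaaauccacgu
miR-376b-3p: aUCAUAGAggaacauccacuu
From miR-376a-3p to miR-376b-3p the sequence differs by G4A, A13C and G20U. The seed UGGAUAU is shared by miR-376b-5p and miR-376c-5p, which had 17 and 0 reads. Inosine is read as G, and the table has 9 entries that match a member but for 1 A-to-G change. All 9 had 0 reads, but none of them is a form of a miR-376 arm, so editing of miR-376 was not analysed here. Over any base change, 65 entries match a member but for 1 base, and 2 of these had reads. The entry with G10A of miR-381-3p had 27 reads, which is 0.0140% of both (0.00925 to 0.0204), and that with G22C of miR-134-5p had 1.

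A short run of bases recurs in these sequences. It was noticed after the sequences were seen, and it is a description of the miRNA list and not of the library. GGUNNAC, read on the sense strand of the mature sequence, occurs in 22 of 75 members (29.3%) and in 14 of the 1888 other mouse sequences (0.742%), and its reverse complement GUNNACC in 14 members (18.7%) and 10 others (0.530%). The patterns can overlap, and 13 members hold both. In 3p arms GGUNNAC starts at base 11 in 11 of 13, behind the seed, whereas in 5p arms it starts at base 2 in 6 of 9 and so lies in the seed. Examples follow with these patterns, and not the seed, in capitals.
miR-379-5p: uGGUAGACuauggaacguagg
miR-411-5p: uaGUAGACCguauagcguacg
miR-380-5p: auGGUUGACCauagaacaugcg
miR-134-5p: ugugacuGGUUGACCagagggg
miR-323-3p: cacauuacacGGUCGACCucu
miR-495-3p: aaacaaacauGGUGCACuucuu
miR-543-3p: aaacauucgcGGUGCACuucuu
miR-409-3p: gaauguugcucGGUGAACCccu
The 23 members with either pattern held 41909 reads. miR-381-3p and miR-300-3p have neither. Of all members, 30 begin with U, 29 with A, 11 with G and 5 with C. In other mouse sequences 779, 469, 239 and 401 of 1888 do. The median GC content was 47.6% in members and 52.2% in the others, and the median length was 22 bases in both.

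The same maternal domain holds other miRNAs, among them those antisense to Rtl1, and they serve as the nearest comparison. Their 35 sequences, of which 22 had reads, held 58392 reads, led by miR-127-3p with 46251. The cluster had 4.21 reads for each of theirs (4.17 to 4.25), and 2.33 with end forms, where miR-127-3p had 96047. Without miR-381-3p the direction reversed, to 0.915 (0.904 to 0.926). Without both miR-381-3p and miR-127-3p it was 4.40 (4.32 to 4.49). Each side was thus led by a single miRNA, and the ratio depended on which of them was counted. GGUNNAC occurs in 0 of those 35 sequences. Of imprinted miRNAs outside the domain, only 4 single arms on other chromosomes were counted, miR-296-5p, miR-298-5p, miR-483-5p and miR-675-5p. They held 234 reads, and 3 of them had reads. Their other arms and other imprinted miRNAs were not included, so this is no total for imprinted miRNAs.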

How the data were processed

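Per the labels' protocols, small RNA of liver was joined to adapters, copied, amplified by PCR, size-selected and read from 1 end on an Illumina instrument, with no mention of molecular identifiers. The values the authors deposited are raw read counts for each mature miRNA entry of many species. Its count column matches the title of Cre-miR122 replicate 2 only. How reads were counted is not given in the sources used here. Per the submitters' processing notes, the build was mm10. Ligation and PCR bias affect read shares.

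Each distinct sequence was used once, giving 8163802 reads over 30721 sequences, 6661069 of them mouse. Library totals before matching were not used here. End forms are other species' entries of the same name and number, with at least 15 bases of overlap, no mismatch and ends shifted by at most 8 bases, each given to the mouse sequence of greatest overlap. Adding end forms everywhere gave 8068123 mouse reads. Sequences and coordinates (1-based) come from RefSeq GRCm38.p6, the same assembly as mm10. It held 71 of the 75 members, and the other 4 are named without sequence. It also held 37 of the 38 hairpins, and miR-666 was placed by the span of its arms. Mirg comes from GENCODE M21.

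Exact Clopper-Pearson 95% intervals go with shares, and exact binomial intervals, given the sum of 2 counts, with ratios. PCR copies were counted as separate reads, so intervals and the floor of 3 reads cover counting error only. Intervals and assignment of end forms were tested on simulated data. Named members are the 12 most read. Of those with at least 100 reads once end forms were added, the 3 that gained most are named too. So are the other arms and seed partners of all these, the first and last hairpins, miR-134, miR-485 and the miR-376 members. Others were chosen after their values were seen. The members and lists were chosen with earlier results of these data known. Alternatives were end forms, a minimum of 10 reads, all sequences as the total, and leaving out miR-148a-3p or miR-381-3p. With 1 library, no test between groups was run. Values were computed with SciPy 1.17.1, NumPy 2.4.6 and pandas 2.3.3 under Python 3.11.15, and drawn with matplotlib 3.10.9.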

Additional observations from a re-analysis of the deposited data

Results flagged for a closer look

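End forms, which are entries of other species and lie outside the count of mouse entries, held 21103 reads of the cluster. The mouse entries of 4 arms had 0 reads while their end forms lay above the floor of 3 reads set for a count of 0. They were miR-382-3p with 2023 reads, miR-496a-3p with 93, miR-485-3p with 55 and miR-758-3p with 48. Of the 93 reads of miR-496a-3p, 91 start 2 bases later than the mouse entry. The reads of miR-485-3p were spread over 3 forms, with 22, 22 and 11 reads, and 42 of the 48 reads of miR-758-3p lay in a form longer by 3 bases. An entry that equals miR-381-3p but for G10A had 27 reads, beside 192422 of the mouse entry, and its origin was not tested. The library has no control, so each of these values is set against the floor of a count of 0 alone.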

How the results depend on the processing

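No paired analysis was possible because there was 1 library, so counting error is the only error given. The cluster's share of mouse reads, 3.69%, was 3.31% with end forms, 3.01% with all sequences of all species as the total, 8.77% without miR-148a-3p in the total and 0.826% without miR-381-3p. With end forms, the share of miR-381-3p in the cluster moved from 78.3% to 72.9% and that of 3p arms from 81.4% to 77.4%. Reads with the seed of miR-381-3p moved from 78.3% to 73.9% of the cluster when forms with the same first base were added. Without miR-381-3p the 3p share was 14.2%. The ratio to the other miRNAs of the domain, 4.21, was 2.33 with end forms and reversed to 0.915 without miR-381-3p. A minimum of 10 reads left 37 members with reads of 50, and end forms gave 56. Both stayed within 1.5 times, and that minimum moved no share or ratio beyond its interval. With end forms, the read counts of 28 of 75 members moved beyond the counting interval of their mouse entry, and those of 47 did not. This compares reads and not shares, whose total also grew. Leaving out end forms absent from the mouse hairpin removed 56 reads and changed the ratio with end forms, 1.09, by less than its interval. All 56 were of a miR-495-3p form longer by 1 base. The hairpin sequence used ends with the last base of miR-495-3p, so it could not hold that form. Members with 1 to 9 reads have wide intervals, and 0 reads of a mouse entry do not show that an arm is absent, since ends that no entry records were not counted.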
